A study of Mus musculus with 8 samples.

Results

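The complement system is a set of plasma and cell surface proteins that mark microbes and damaged cells and can lyse them. The classical pathway starts from antibody bound by C1q, the lectin pathway from sugars bound by mannose-binding lectins and collectins, and the alternative pathway from spontaneous turnover of C3. All 3 routes cleave C3 and then C5, and the terminal components C6, C7, C8 and C9 assemble on C5b into the membrane attack complex. The liver is the main source of most plasma components, whereas the C1q chains are known to come largely from macrophages. In mice the level of terminal components in plasma is known to be higher in males than in females.

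Expression of 35 complement genes was examined in liver RNA-seq from 4 FXRKO and 4 BCL6LKOFXRKO males. The genes were chosen by symbol, from knowledge of the system, but with earlier results of these data known. All 35 were found among the 24940 genes of the count table. All 35 also passed edgeR's expression filter. Mice of both groups were of the C57BL/6 strain, carried Bcl6(fl/fl) and were FXR(homo), the homozygous knockout that removes the bile acid receptor FXR from the whole body. BCL6LKOFXRKO mice additionally carried Alb-Cre, which is driven by the albumin promoter and deletes floxed *Bcl6*, the gene of a transcriptional repressor, in hepatocytes. The labels give no age or feeding state. No liver with intact FXR was used here, and none with Alb-Cre but without floxed *Bcl6*. Each value below thus compares FXR-deficient livers with and without Alb-Cre. The study reported raised bile acids, collagen staining and immune marker genes in BCL6LKOFXRKO males against FXRKO males. The part of this liver damage in the differences was not tested. The livers of each group are numbered 1 to 4, and the labels name no pairs, litters or batches. Some livers of different groups carry consecutive animal numbers in their titles, and whether these share a litter or harvest is not stated.

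Total counts were between 7586241 and 11839503 per liver, and a count of 3 corresponded to 0.272 to 0.375 CPM, the unit used for all levels below (counts per library size, adjusted with edgeR's TMM factors), which covers counting error only. *Bcl6* was at 56.3, 65.2, 21.2 and 55.6 CPM in FXRKO livers and at 11.9, 4.61, 5.55 and 7.72 CPM in BCL6LKOFXRKO livers, so no liver went against its label. *Nr1h4*, the FXR gene, was still counted, at between 56.7 and 62.6 CPM and between 39.4 and 48.1 CPM, with no liver of intact FXR to compare. *Alb*, a hepatocyte transcript, had 127793 CPM or more in BCL6LKOFXRKO livers and between 38238 and 48536 CPM in FXRKO livers. Of 8 hepatocyte markers, it alone was called higher by the test described below. *Ttr* and *Pck1* were called lower, and 5 were not called. The 50 most counted genes held between 40.7% and 44.1% of counts in BCL6LKOFXRKO livers, against between 29.8% and 31.2% in FXRKO livers. Liver 2 of the BCL6LKOFXRKO group stood apart in several complement genes and in acute phase genes, and values without it are given beside the genes it moved most. Calls rest on edgeR's quasi-likelihood test with an adjusted p under 0.05, adjusted over all 12340 tested genes. The p-values weigh the difference between the groups against the spread between these livers, which edgeR estimates with information shared across genes.

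Of the 35 complement genes, 12 were higher and 9 lower in BCL6LKOFXRKO livers, and 14 were not called. The 21 called genes were 60% of the 35, whereas 29.7% of all tested genes were called, 16.2% higher and 13.5% lower. These shares were not matched for level, which bears on how readily a gene is called. By level per transcript length in FXRKO livers, *Cfhr2* was rank 18 of the 35 and rank 456 of all tested genes. The median log2 fold change over the 35 genes was -0.05 and that over all tested genes 0.01. For 23 of the 35 genes the livers of the groups did not overlap, against 31.3% of all tested genes. Of the 35 genes, 6 were called with a log2 fold change under -1 (*C4a*, *Cfd*, *C6*, *C8a*, *C8b* and *C9*), compared with 3.41% of all tested genes, and 1, *Mbl2*, was called with a log2 fold change above 1, compared with 7.08%. In bulk RNA, fewer cells of a type and less RNA per cell cannot be told apart. Without FXRKO liver 3 the number called higher dropped to 6, as *C1qa*, *C1qb*, *C1qc*, *Cfb*, *Cd59a* and *C3ar1* lost their call, while the number called lower stayed at 9. Without BCL6LKOFXRKO liver 2 the numbers were 9 higher and 11 lower.

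**Figure D1:**
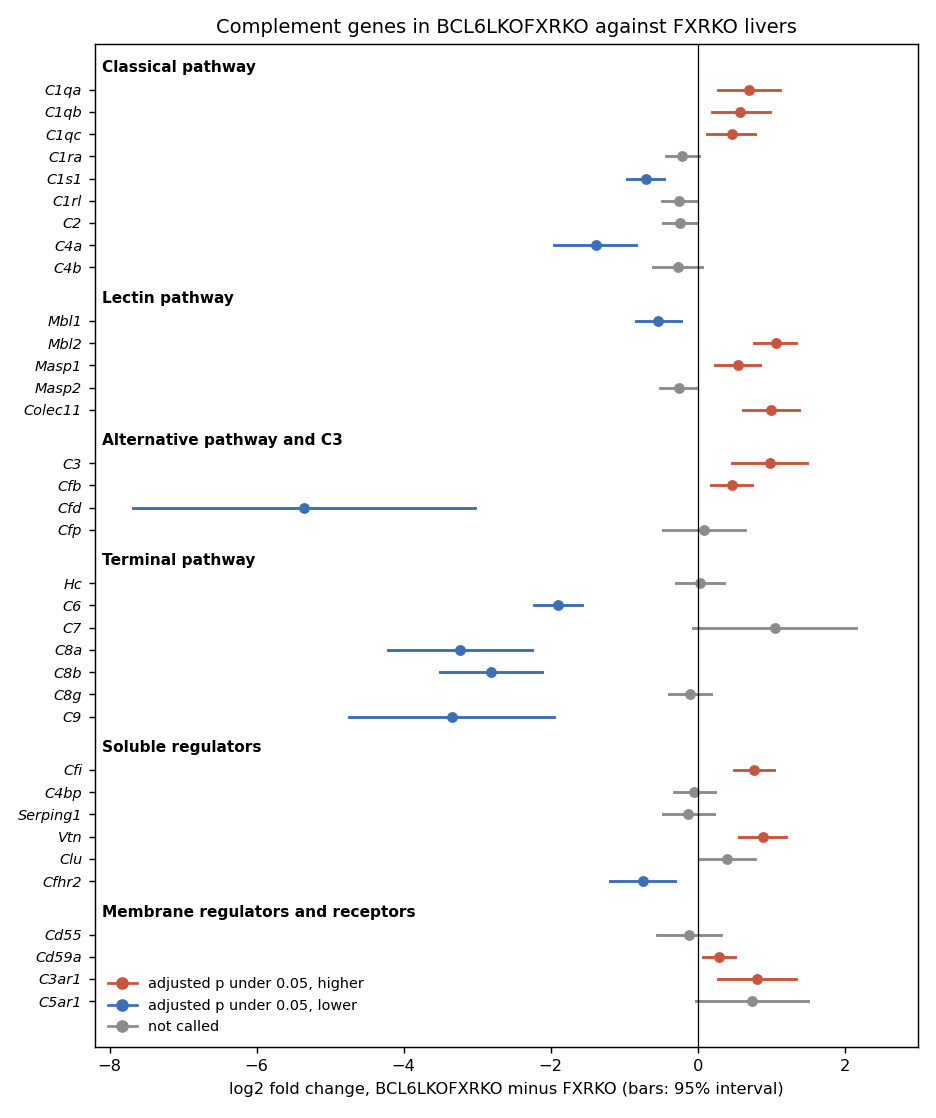
Log2 fold change of each of the 35 complement genes (horizontal axis, BCL6LKOFXRKO minus FXRKO, edgeR), grouped by role, with bars for the 95% interval. Genes called higher (12) are red, genes called lower (9) blue and the other 14 grey. *C6*, *C8a*, *C8b* and *C9* lie between -3.35 and -1.90, apart from the other terminal genes *Hc*, *C7* and *C8g*, which were not called.

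The terminal pathway had the lowest median of the role groups. Of its 7 genes, 4 were lower, 3 were not called and none was higher, and the median log2 fold change was -1.90. The summed level of *C6*, *C8a*, *C8b* and *C9* was between 2235 and 2714 CPM in FXRKO livers and between 253 and 608 CPM in BCL6LKOFXRKO livers.

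*C6*, which binds C5b as the first step of the membrane attack complex, was at 592, 564, 460.0 and 417 CPM in FXRKO livers and at 149, 157, 127 and 112 CPM in BCL6LKOFXRKO livers. All BCL6LKOFXRKO livers were low and close to each other, and the groups did not overlap. Its mean was 3.74 times higher in FXRKO livers (log2 fold change -1.90, SE 0.15, edgeR adjusted p = 1.43e-06). The exact two-sided permutation p was 0.029, the smallest that the 70 arrangements of the livers allow, and this holds for each of the terminal genes that fell.

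*C8a* encodes the alpha chain of C8, which inserts into the target membrane. It was at 974, 1020.2, 827 and 1034 CPM in FXRKO livers and at 59.6, 210.2, 67.0 and 74.2 CPM in BCL6LKOFXRKO livers. Every BCL6LKOFXRKO liver was far below every FXRKO liver, and liver 2 was the highest of its group. The mean was 9.38 times higher in FXRKO livers (log2 fold change -3.23, SE 0.43, edgeR adjusted p = 0.000759), and without BCL6LKOFXRKO liver 2 the log2 fold change was -3.86.

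*C8b* encodes the beta chain, through which C8 binds the growing complex. It was at 434, 535, 459 and 414 CPM in FXRKO livers and at 50.2, 118, 46.9 and 47.1 CPM in BCL6LKOFXRKO livers. BCL6LKOFXRKO liver 2 was again the highest of its group, and the groups did not overlap. The mean was 7.02 times higher in FXRKO livers (log2 fold change -2.81, SE 0.31, edgeR adjusted p = 0.000121), and without BCL6LKOFXRKO liver 2 the log2 fold change was -3.27.

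*C9*, whose protein polymerizes into the pore, was at 496, 594, 489 and 529 CPM in FXRKO livers and at 36.9, 122, 28.9 and 19.6 CPM in BCL6LKOFXRKO livers. The groups did not overlap, and BCL6LKOFXRKO liver 2 was the highest of its group. The mean was 10.1 times higher in FXRKO livers (log2 fold change -3.35, SE 0.59, edgeR adjusted p = 0.00533), and the log2 fold change without BCL6LKOFXRKO liver 2 was -4.22.

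The other terminal genes were not called. *Hc*, the mouse gene of C5, was at 909, 872, 688 and 1001 CPM in FXRKO livers and at 817, 1069.6, 918 and 729 CPM in BCL6LKOFXRKO livers, with a 95% interval of the log2 fold change from -0.30 to 0.35. *C8g*, the gene of the lipocalin chain of C8, was at 251, 287, 299 and 226 CPM against 238, 253, 206 and 290.2 CPM, with an interval from -0.39 to 0.18. The groups overlapped for each gene, and the intervals leave out changes of the size seen in *C8a* and *C8b*. *C7* was near the detection limit, with between 5 and 34 counts per liver (log2 fold change 1.05, SE 0.51, edgeR adjusted p = 0.143), and the log2 fold change was 0.45 without BCL6LKOFXRKO liver 2.

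**Figure D2:**
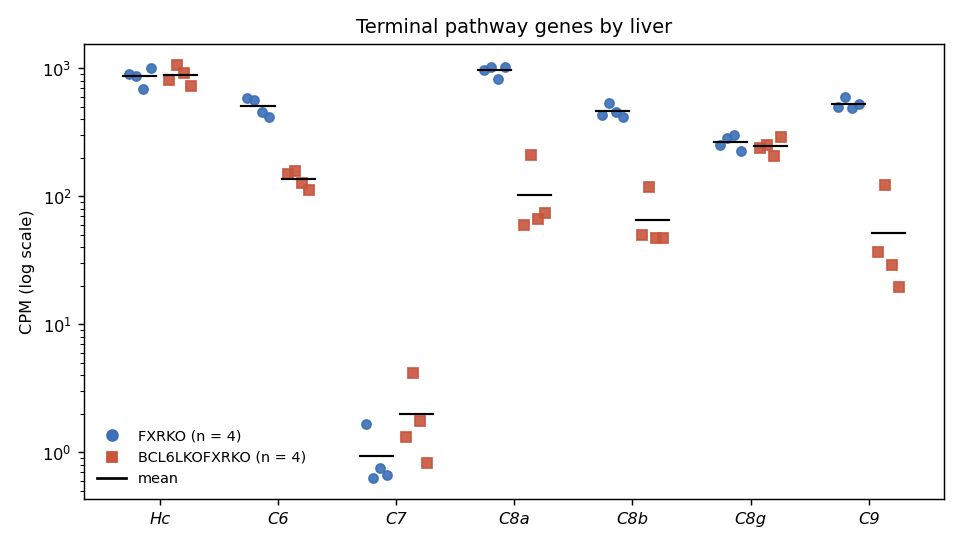
CPM on a log scale (vertical axis) of the 7 terminal pathway genes in each FXRKO liver (blue circles) and each BCL6LKOFXRKO liver (red squares), with black lines at the means of 4 livers. For *C6*, *C8a*, *C8b* and *C9* the red points lie below all blue points, for *Hc* and *C8g* they mix, and BCL6LKOFXRKO liver 2 is the high red point of *C8a* (210.2 CPM), *C8b* (118 CPM) and *C9* (122 CPM).

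C8 is built from 1 alpha, 1 beta and 1 gamma chain, so the levels of its transcripts were compared per transcript length (RPKM). The ratio of *C8a* to *C8g* RPKM was 1.11, 1.02, 0.791 and 1.31 in FXRKO livers and 0.0716, 0.237, 0.0928 and 0.0730 in BCL6LKOFXRKO livers. That of *C8b* to *C8g* was between 0.714 and 0.868 and between 0.0755 and 0.218. The transcripts of the chains were thus close to even in FXRKO livers, whereas the gamma chain transcript exceeded both others in every BCL6LKOFXRKO liver. *C8a* and *C8b* also changed relative to each other, from a ratio between 1.11 and 1.53 to a ratio between 0.730 and 1.09. *C6* relative to *Hc* moved from between 0.798 and 1.28 to between 0.266 and 0.348. These ratios are descriptions and carry no test.

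The 4 terminal genes that fell lie on 2 chromosomes (mm10). *C8a* (chromosome 4, 104815680 to 104876398, minus strand) and *C8b* (chromosome 4, 104766317 to 104804548, plus strand) are neighbours with ends 11.1 kb apart. Within 250 kb of them, the tested neighbours outside the complement genes were *Fyb2*, an adaptor protein gene, which was higher (log2 fold change 0.96, edgeR adjusted p = 0.00497), and *Prkaa2*, a catalytic subunit of AMP-activated kinase, which was lower (log2 fold change -1.08, edgeR adjusted p = 0.00102). *C6* (chromosome 15, 4727210 to 4804045, plus strand) had *C7* as its only tested neighbour, 185 kb away. *C9* (chromosome 15, 6445333 to 6498476, plus strand) lies on the same chromosome, and none of its 4 tested neighbours within 250 kb was called, *Dab2* included, which lies 4.62 kb away (log2 fold change 0.15).

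The promoters of the 4 terminal genes that fell are shown because these genes moved together. They are the 250 bases before the RefSeq start of each gene in GRCm38.p6, the assembly behind mm10, printed 5′ to 3′ on the gene's own strand, with motif matches in capitals. RefSeq gave such a window for 26 of the 35 complement genes. The window of *C9* runs 13 bases into the transcript that the counts used.
C6 (chr15:4726960-4727209, + strand): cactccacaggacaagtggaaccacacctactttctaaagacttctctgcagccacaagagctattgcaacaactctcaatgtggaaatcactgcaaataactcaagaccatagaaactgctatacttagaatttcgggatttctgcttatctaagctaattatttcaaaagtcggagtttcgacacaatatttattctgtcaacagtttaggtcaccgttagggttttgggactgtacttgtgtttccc
C8a (chr4:104876399-104876648, - strand): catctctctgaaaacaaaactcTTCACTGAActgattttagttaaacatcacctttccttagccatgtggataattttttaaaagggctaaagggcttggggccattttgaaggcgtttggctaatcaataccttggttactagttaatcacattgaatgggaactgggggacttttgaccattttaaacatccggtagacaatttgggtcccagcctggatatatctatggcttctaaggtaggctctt
C8b (chr4:104766067-104766316, + strand): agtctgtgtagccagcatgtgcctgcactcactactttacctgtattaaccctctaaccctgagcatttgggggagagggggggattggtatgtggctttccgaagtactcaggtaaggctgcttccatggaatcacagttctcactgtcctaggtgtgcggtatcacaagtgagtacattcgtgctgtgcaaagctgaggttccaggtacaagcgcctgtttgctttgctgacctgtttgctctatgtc
C9 (chr15:6445096-6445345, + strand): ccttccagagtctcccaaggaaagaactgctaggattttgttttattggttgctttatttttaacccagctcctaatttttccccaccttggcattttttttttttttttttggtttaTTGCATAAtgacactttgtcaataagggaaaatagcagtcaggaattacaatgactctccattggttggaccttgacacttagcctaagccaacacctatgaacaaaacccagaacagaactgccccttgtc
Exact matches on both strands were searched for TTCNNNGAA, the core bound by STAT factors and by BCL6, for TTNNGCAA and the palindrome TTGCGCAA contained in it, bound by C/EBP factors, and for the inverted repeat bound by FXR and the NF-kB site, each in a single exact form. The capitals mark TTCNNNGAA in *C8a*, where the match begins 228 bases before the start, and TTNNGCAA on the opposite strand in *C9*, beginning 132 bases before it. The windows of *C6* and *C8b* hold none of the motifs. Over the 26 windows, TTCNNNGAA was found in 4 (*C7*, *C8a*, *Masp2* and *Colec11*), or 15.4%, against 7.02% of 32851 promoters of the same length, and TTNNGCAA in 3 (*C1rl*, *C3* and *C9*), or 11.5%, against 9.56%. The other motifs were in none of the 26 and in at most 0.164% of all promoters. A match describes the letters and not a bound site.

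The central component moved the other way. *C3*, whose cleavage joins all routes, was at 10199, 7302, 5474 and 10620.3 CPM in FXRKO livers and at 13615, 24063 and 14418 CPM in BCL6LKOFXRKO livers 1 to 3, with liver 4 between livers 1 and 3. All BCL6LKOFXRKO livers were higher than all FXRKO livers, and liver 2 of BCL6LKOFXRKO stood far above the other three. The log2 fold change was 0.98 (SE 0.24, edgeR adjusted p = 0.00909), and it was 0.73 without that liver (edgeR adjusted p = 0.0172). *C3* held between 27.4% and 37.5% of the counts of the 35 genes in FXRKO livers and between 43.2% and 53.6% in BCL6LKOFXRKO livers.

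*C3* is also an acute phase gene, and the summed level of 20 other acute phase genes was given beside it. That sum was 39183, 24432, 14935 and 30275 CPM in FXRKO livers and 36417, 62262, 35104 and 38567 CPM in BCL6LKOFXRKO livers. FXRKO liver 3 was the lowest and BCL6LKOFXRKO liver 2 the highest of the 8 livers in both the sum and *C3*, whereas FXRKO liver 1 had a higher acute phase sum than BCL6LKOFXRKO livers 1, 3 and 4 and less *C3*. Of the 20 acute phase genes, 3 were higher (*Cp*, *Itih4* and *Hpx*) and 1 lower (*Saa4*, log2 fold change -2.40, edgeR adjusted p = 0.00497). The share called was 20%, against 29.7% of all tested genes. *Saa1*, the classical inflammation marker, was at 4049, 659, 169 and 1598 CPM against 95.9, 1053, 63.5 and 220.2 CPM and was not called (edgeR adjusted p = 0.258). The part of the acute phase in the difference in *C3* was not tested.

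**Figure D3:**
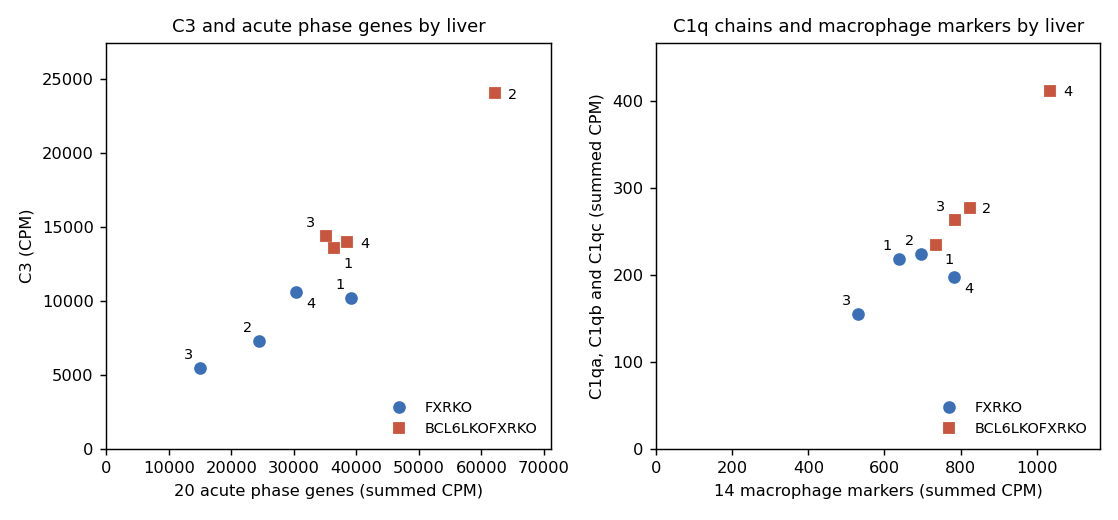
Left, CPM of *C3* (vertical) against the summed CPM of 20 acute phase genes (horizontal). Right, summed CPM of *C1qa*, *C1qb* and *C1qc* (vertical) against that of 14 macrophage markers (horizontal). Each point is a liver with its number, FXRKO as blue circles and BCL6LKOFXRKO as red squares. BCL6LKOFXRKO liver 2 lies apart on the left (24063 CPM of *C3* at 62262 CPM) and BCL6LKOFXRKO liver 4 on the right (412 CPM of the C1q chains at 1036 CPM).

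Of the 4 genes grouped as the alternative pathway and C3, 2 were higher and 1 lower. *Cfb*, the gene of factor B, which forms the C3 convertase with C3b, was at 1427, 1281, 1123 and 1361 CPM in FXRKO livers and at 1730.1, 2041, 1598 and 1766 CPM in BCL6LKOFXRKO livers. The groups did not overlap, and the rise was small (log2 fold change 0.46, SE 0.13, edgeR adjusted p = 0.0164). It was not called with total counts as the only scaling (log2 fold change 0.30) or without FXRKO liver 3 (0.39, edgeR adjusted p = 0.0611).

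*Cfd*, the gene of factor D or adipsin, the protease that cleaves factor B, had the lowest share left of all the complement genes. It was at 1.98, 7, 12.6 and 1.51 CPM in FXRKO livers and at 0.101, 0.121, 0.292 and 0 CPM in BCL6LKOFXRKO livers. FXRKO livers held between 16 and 117 counts and BCL6LKOFXRKO livers at most 3, and the groups did not overlap. Over the livers of each group, 208 against 5 counts gave a ratio of 43.8 after scaling, with a counting interval from 18.5 to 136 that leaves out the spread between livers. The fitted log2 fold change was -5.35 (SE 1.03, edgeR adjusted p = 0.00438), a value that depends on the prior count, and it was -4.61 without FXRKO liver 3 and -6.13 without BCL6LKOFXRKO liver 3. *Cfd* is best known as an adipocyte gene. Of the adipocyte markers, *Plin1* and *Lep* had no count in any liver and *Adipoq* had at most 1, whereas *Car3*, which hepatocytes also express, was at 2113, 3381, 4642 and 2237 CPM in FXRKO livers and at 1020.0, 661, 1387 and 824 CPM in BCL6LKOFXRKO livers. *Car3*, the only tested gene of these markers, was called lower (log2 fold change -1.67). FXRKO livers 2 and 3 were the highest of their group in both *Car3* and *Cfd*, an order that carries no test. *Cfp*, the gene of properdin, which stabilizes that convertase, was between 22.0 and 33.7 CPM and between 21.5 and 49.6 CPM (95% interval of the log2 fold change from -0.48 to 0.64), and the sign of its difference changed with total counts as the only scaling.

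Of the 9 classical pathway genes, 3 were higher, 2 were lower and 4 were not called, and the 3 that rose were the chains of C1q. *C1qa* encodes the A chain of C1q, the antibody sensor, and was at 70.7, 67.9, 49.3 and 64.7 CPM in FXRKO livers and at 77.2, 92.2, 88.7 and 151 CPM in BCL6LKOFXRKO livers. *C1qb*, the B chain, was at 73.8, 81.6, 53.1 and 67.2 CPM against 82.2, 96.4, 89.7 and 144 CPM. *C1qc*, the C chain, was at 73.5, 74.1, 52.6 and 66.6 CPM against 75.4, 88.7, 84.4 and 117 CPM. For each chain the groups did not overlap, but the gap between them was narrow, FXRKO liver 3 was the lowest and BCL6LKOFXRKO liver 4 the highest. The log2 fold changes were 0.70 (SE 0.20), 0.58 (SE 0.18) and 0.46 (SE 0.15), with edgeR adjusted p-values of 0.0186, 0.0291 and 0.0379. Without FXRKO liver 3 none of the chains was called (edgeR adjusted p = 0.0558, 0.0877 and 0.119). Without BCL6LKOFXRKO liver 4 the log2 fold changes were 0.45, 0.38 and 0.31, and *C1qb* and *C1qc* were not called (edgeR adjusted p = 0.0520 and 0.0764). Of 15 alternative settings, the call was lost in 1 for *C1qa*, 5 for *C1qb* and 7 for *C1qc*. The genes of the chains lie within 9.74 kb of each other on chromosome 4.

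Of 14 macrophage markers, 6 were higher, none was lower and 8 were not called, among them *Cd163* with a log2 fold change of -0.98 (edgeR adjusted p = 0.0590). The share called was 42.9%, against 29.7% of all tested genes. Their sum was 638, 697, 529.6 and 782 CPM in FXRKO livers and 735, 824, 786 and 1036 CPM in BCL6LKOFXRKO livers. No marker was at 0 in any liver. The resident Kupffer cell markers *Clec4f* and *Timd4* were not called (log2 fold changes 0.20 and -0.32), and *Cd68* and *Lyz2* were higher (0.93 and 0.81). The ratio of the summed C1q chains to the summed markers was 0.342, 0.321, 0.293 and 0.254 in FXRKO livers and 0.319, 0.336, 0.335 and 0.398 in BCL6LKOFXRKO livers, and these ranges overlapped. The part of macrophage number in the C1q difference was not tested. The chains also differed slightly among themselves, since *C1qa* over *C1qc* in RPKM was between 0.892 and 0.946 in FXRKO livers and between 0.996 and 1.26 in BCL6LKOFXRKO livers.

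The proteases of the first complex did not follow the C1q chains. *C1s1*, the gene of C1s, which cleaves C4 and C2, was at 629.7, 616, 592 and 633 CPM in FXRKO livers and at 384, 418, 391 and 316 CPM in BCL6LKOFXRKO livers. FXRKO livers were within a narrow band, all BCL6LKOFXRKO livers were below it, and the log2 fold change was -0.71 (SE 0.12, edgeR adjusted p = 0.000583). *C1ra*, the gene of C1r, which activates C1s, was between 252 and 267 CPM and between 206 and 242 CPM. It did not overlap either, but it was not called (log2 fold change -0.21, edgeR adjusted p = 0.154). The ratio of *C1s1* to *C1ra* in RPKM was between 2.20 and 2.29 in FXRKO livers and between 1.24 and 1.75 in BCL6LKOFXRKO livers. The related protease gene *C1rl*, in the same cluster of chromosome 6, was not called (log2 fold change -0.25, edgeR adjusted p = 0.0940), although its groups did not overlap, and it was called lower without BCL6LKOFXRKO liver 2 (-0.33, edgeR adjusted p = 0.0381).

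*C4a*, known as sex-limited protein and in some strains expressed mainly in males, was at 12.4, 15.4, 10.4 and 7.19 CPM in FXRKO livers and at 3.53, 4.49, 3.21 and 5.90 CPM in BCL6LKOFXRKO livers. The groups did not overlap, with FXRKO liver 4 and BCL6LKOFXRKO liver 4 nearest to each other. The log2 fold change was -1.39 (SE 0.26, edgeR adjusted p = 0.00133). The value is uncertain, because *C4a* is nearly identical to *C4b* and only reads with a single location were counted. *C4b*, the gene of C4 itself, was at 2118, 2046, 1527 and 2240.3 CPM against 1473, 2053, 1468 and 1569.9 CPM and was not called (log2 fold change -0.27, edgeR adjusted p = 0.208), but without BCL6LKOFXRKO liver 2 it was called lower (-0.41, edgeR adjusted p = 0.0497). *C2*, which forms the classical C3 convertase with C4b and lies 87 bases from *Cfb*, was not called either (log2 fold change -0.24, edgeR adjusted p = 0.0948).

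In the lectin pathway, 3 of 5 genes were higher and 1 lower, and the mannose-binding lectins moved in opposite directions. *Mbl2*, the gene of mannose-binding lectin C, was at 389, 348, 369 and 488 CPM in FXRKO livers and at 769, 789.9, 868 and 889 CPM in BCL6LKOFXRKO livers. The BCL6LKOFXRKO livers were all higher, with a wide gap (log2 fold change 1.06, SE 0.13, edgeR adjusted p = 6.56e-05). *Mbl1*, the gene of mannose-binding lectin A, was at 248, 227, 200.1 and 238 CPM against 128, 192, 136 and 173 CPM. It was lower in every BCL6LKOFXRKO liver, though liver 2 came close to FXRKO liver 3 (log2 fold change -0.54, SE 0.14, edgeR adjusted p = 0.0124). Per transcript length, *Mbl2* over *Mbl1* was 1.36, 1.33, 1.59 and 1.77 in FXRKO livers and 5.18, 3.55, 5.53 and 4.43 in BCL6LKOFXRKO livers.

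*Colec11*, the gene of collectin 11, another sugar sensor, was at 20.5, 25.4, 22.9 and 24.5 CPM in FXRKO livers and at 44.1, 34.1, 41.9 and 64.7 CPM in BCL6LKOFXRKO livers. All BCL6LKOFXRKO livers were higher (log2 fold change 0.99, SE 0.18, edgeR adjusted p = 0.00102). *Colec11* is known to be expressed by several liver cell types. Of 9 stellate cell and fibroblast markers, 6 were also higher and none lower (66.7% called, against 29.7% of all tested genes). Their sums were between 271 and 361 CPM in FXRKO livers and between 526 and 594 CPM in BCL6LKOFXRKO livers. The part of those cells in the rise was not tested. *Masp1*, the gene of a protease that the lectins activate, was at 59.2, 83.0, 71.9 and 89.2 CPM against 106, 99.0, 130.2 and 107 CPM, with no overlap (log2 fold change 0.54, SE 0.14, edgeR adjusted p = 0.0110), and with total counts as the only scaling it was not called (log2 fold change 0.39). *Masp2*, the gene of the protease that cleaves C4 and C2 in this pathway, was not called (log2 fold change -0.26, edgeR adjusted p = 0.108).

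Among the soluble regulators, 2 of 6 genes were higher and 1 was lower. *Cfi*, the gene of factor I, the protease that inactivates C3b and C4b, was at 674, 563, 550.2 and 664 CPM in FXRKO livers and at 1031, 1187, 974 and 971 CPM in BCL6LKOFXRKO livers. *Vtn*, the gene of vitronectin, which keeps forming attack complexes from inserting into membranes, was at 3155, 2504, 2165 and 2785 CPM against 4264, 5665, 4427 and 5182 CPM. For both genes all BCL6LKOFXRKO livers were higher. The log2 fold change was 0.76 (SE 0.12, edgeR adjusted p = 0.000569) for *Cfi* and 0.88 (SE 0.15, edgeR adjusted p = 0.000770) for *Vtn*. *Cfhr2*, a gene of the factor H-related family, was at 235, 249.8, 254 and 263 CPM against 162, 184, 168 and 80.6 CPM. It was lower in every BCL6LKOFXRKO liver and lowest in liver 4 (log2 fold change -0.75, SE 0.20, edgeR adjusted p = 0.0157), and it was -0.55 without that liver. Its reads may be split with those of its relatives.

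The other soluble regulators were not called. *C4bp*, the gene of the C4b-binding protein, had an interval of the log2 fold change from -0.33 to 0.23, and *Serping1*, the gene of the C1 inhibitor, one from -0.47 to 0.22. The log2 fold change of *Serping1* was -0.13, and -0.31 without BCL6LKOFXRKO liver 2. *Clu*, the gene of clusterin, another inhibitor of the attack complex, was between 1547 and 2746 CPM and between 2161 and 3225 CPM (log2 fold change 0.40, edgeR adjusted p = 0.111), and it was called higher without FXRKO liver 1 (0.56, edgeR adjusted p = 0.0274). In all 3 genes the groups overlapped.

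Of the 4 genes of membrane regulators and receptors, 2 were higher. *Cd59a*, which blocks C9 on the body's own cells, was at 46.4, 44.1, 46.4 and 47.3 CPM in FXRKO livers and at 62.7, 56.6, 54.5 and 52.1 CPM in BCL6LKOFXRKO livers. The groups did not overlap, but the difference was small (log2 fold change 0.29, SE 0.10, edgeR adjusted p = 0.0453) and lost its call in 11 of 15 alternative settings. *C3ar1*, the receptor gene of C3a, was at 5, 4.25, 2.69 and 3.22 CPM against 6.04, 9.10, 5.94 and 5.45 CPM (log2 fold change 0.80, SE 0.24, edgeR adjusted p = 0.0251), from between 25 and 75 counts per liver. It was higher in every BCL6LKOFXRKO liver, like the C1q chains a gene of myeloid cells, and was not called without BCL6LKOFXRKO liver 2, FXRKO liver 3 or FXRKO liver 4 (edgeR adjusted p = 0.0768, 0.0777 and 0.0712). *C5ar1*, the receptor gene of C5a, had a log2 fold change of 0.74 (edgeR adjusted p = 0.138), which was 1.13 without FXRKO liver 1 (edgeR adjusted p = 0.0313). *Cd55*, which speeds the decay of convertases, had an interval from -0.56 to 0.31 and was not called.

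Set against each other per transcript length, the complement genes kept the same leading genes while others changed rank. In FXRKO livers *C3* (1648 RPKM) was first, followed by *Vtn* (1529 RPKM) and *Clu* (1147 RPKM), and the spread of these neighbours over livers overlapped. In BCL6LKOFXRKO livers the same order held, with *C3* at 3241, *Vtn* at 2815 and *Clu* at 1510.3 RPKM. *C9* went from rank 9 (300.3 ± 27.4 RPKM, SD, n = 4) to rank 25 (29.6 ± 27.1), *C8a* from 11 to 27, *C8b* from 15 to 26 and *C6* from 16 to 22. *C1qa* moved up from 25 to 15, *C1qb* from 23 to 14, *C1qc* from 24 to 17 and *Colec11* from 29 to 23. In BCL6LKOFXRKO livers *C1qa* (94.9 ± 30.7 RPKM), *C1qb* (97.6 ± 26.5), *C1qc* (87.1 ± 17) and *Cfhr2* (93.2 ± 29) lay close together, so their order is uncertain. Part of the move of the C1q chains came from *C6*, *C8a*, *C8b* and *C9*, which went from above them to below them. *Mbl2* moved up from 7 to 4, and *Cfd* from 30 down to 35, the last. *C8g* and *Hc* moved from 12 to 10 and from 17 to 12 and were not called.

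**Figure D4:**
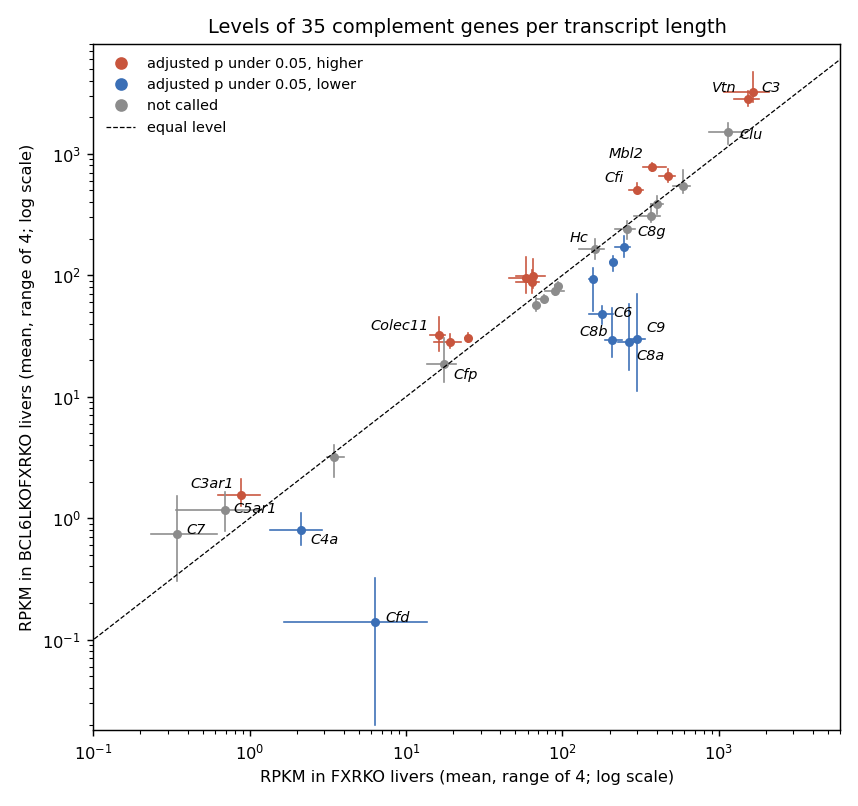
Mean RPKM of each complement gene in FXRKO livers (horizontal, log scale) and in BCL6LKOFXRKO livers (vertical, log scale), with lines for the range of the 4 livers of each group and a dashed line for equal levels. A liver at 0 counts of *Cfd* is drawn at 0.02. Red genes were called higher, blue genes lower and grey genes neither. *C6*, *C8a*, *C8b* and *C9* leave the line at FXRKO levels between 180.1 and 300.3 RPKM, and *C3*, *Vtn* and *Mbl2* lie above it.

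The summed level of the 35 genes was 28702, 24101, 19957 and 28296 CPM in FXRKO livers and 30454, 44888, 30883 and 32367 CPM in BCL6LKOFXRKO livers. The BCL6LKOFXRKO livers were all higher, with liver 2 far above the rest. Without *C3* the sums were between 14483 and 18503 CPM and between 16465 and 20824 CPM and overlapped. Soluble regulators rose in sum from between 6124 and 8743 CPM to between 9313 and 12006 CPM. *Vtn* was the largest of them, with a mean of 2652 CPM in FXRKO and 4884 CPM in BCL6LKOFXRKO livers. *Cfi* and *Clu* also had higher means in BCL6LKOFXRKO livers, whereas *Serping1*, *C4bp* and *Cfhr2* had lower means. The terminal genes went from between 3223 and 3873 CPM to between 1272 and 1935 CPM. No test was made on these sums.

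Outside the 35 genes, 21 further complement genes were listed, of which 14 were tested, 3 were higher and 2 lower. The share called was 35.7% of those tested, against 29.7% of all tested genes. *Susd4*, an inhibitor of the C3 convertase, was at 102, 118, 138 and 135 CPM in FXRKO livers and at 4.63, 0.971, 5.36 and 6.08 CPM in BCL6LKOFXRKO livers. The groups were far apart (log2 fold change -4.82, SE 0.35, edgeR adjusted p = 8.93e-06). *Cpn1* and *Cpn2*, the subunit genes of the carboxypeptidase that inactivates anaphylatoxins, went in opposite directions (log2 fold changes 0.38 and -0.49, edgeR adjusted p = 0.0227 and 0.0251). *Itgb2* and *Itgax*, which encode the chains of a complement receptor of leukocytes, were both higher (0.86 and 1.59, edgeR adjusted p = 0.00309 and 0.00112).

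Of 22 genes for signals and transcription factors, listed as candidates for acting on liver complement genes, 3 were higher and 4 lower. That was 31.8% in all, close to the 29.7% of all tested genes. *Ghr*, the growth hormone receptor, was between 373 and 458 CPM in FXRKO livers and between 1571 and 2350.1 CPM in BCL6LKOFXRKO livers (log2 fold change 2.27, edgeR adjusted p = 2.1e-07). *Cux2*, a factor known for higher levels in female than in male mouse liver, was at 0.312, 0.375, 2.15 and 4.73 CPM against 70.6, 96.5, 96.6 and 85.6 CPM (log2 fold change 5.45, edgeR adjusted p = 0.000242), and *Esr1*, the estrogen receptor, was also higher (1.22, edgeR adjusted p = 0.0448), although its groups overlapped. The lower genes were *Ppara* (-0.99), *Cebpa* (-0.70), *Cebpb* (-0.62) and *Nfkbia* (-0.54), with edgeR adjusted p-values between 0.00104 and 0.00354. *Stat3*, *Hnf4a* and *Il6ra* were among the 15 that were not called. The part of any of these genes in the complement differences was not tested. Of 24 coagulation genes, another group of plasma proteins from hepatocytes, 8 were higher and 2 lower. That was 41.7% called, against 29.7% of all tested genes. Their log2 fold changes were between -0.37 and 1.56, so none fell as far as *C6*, *C8a*, *C8b* or *C9*.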

How the data were processed

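RNA-seq counts of livers from 4 FXRKO and 4 BCL6LKOFXRKO males were used. The authors mapped the reads with STAR 2.5.2 to mm10, kept those with a single location, and deposited raw counts of exonic reads per gene from HOMER 4.10. The library kit was stranded, but the stated counting options name no strand, so overlapping and antisense genes are uncertain. RPKM were computed here from the counts and the deposited transcript lengths. The study used DESeq2.

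Counts were tested in R 4.3.3 with edgeR 4.0.16 (filterByExpr, TMM, robust quasi-likelihood fit, Benjamini-Hochberg adjustment over the 12340 genes tested), and the fit was first tested on simulated counts. Exact permutation tests were two-sided. Alternatives were DESeq2 1.42.0, limma 3.58.1 (voom), each liver left out, stricter fold thresholds, total counts or RLE factors for scaling, the 50 most counted genes removed, and either a minimum of 10 counts per liver or no filter. The complement genes and the other lists were chosen with earlier results of these data known. All 35 complement genes are named, those called with every liver's value, except *C3* in BCL6LKOFXRKO liver 4, which is given only by its order. Marker lists for endothelial cells (1 of 7 genes higher), cholangiocytes (3 of 5), neutrophils (2 of 3), B cells (0 of 1 called) and hepatocytes (1 of 8 higher, 2 lower) were also read. No gene of the T cell list was tested. One item of the lists is not reported here.

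No pair of livers within a genotype agreed within sampling noise (chi-square per degree of freedom from 10.9 to 50.6), and the first principal component of log2 CPM, with 71.5% of the variance, separated the genotypes.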

Additional observations from a re-analysis of the deposited data

Results flagged for a closer look

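A complement gene was noted here when the highest or lowest liver of a group of 4 lay far from the others, measured as its gap to the nearest liver over the range of the group. This occurred in 9 of 73 groups examined, where about 3.6 are expected by chance (1 in 20). In 7 of the 9 the liver was BCL6LKOFXRKO liver 2, which was the highest of its group. The gap ratio was 0.923 for *C3* (24063 CPM against 14418 CPM or less in the others), 0.903 for *C8a* (210.2 CPM against at most 74.2), 0.955 for *C8b* (118 CPM against at most 50.2) and 0.832 for *C9* (122 CPM against at most 36.9). It was 0.920 for *Serping1* (1326 CPM against at most 894), 0.837 for *C3ar1* (9.10 CPM against at most 6.04) and 0.868 for the summed level of the 35 genes (44888 CPM against at most 32367). The same liver was the highest of its group in *Saa1* (1053 CPM), *Lcn2* (812 CPM) and *Hp* (9037 CPM). The remaining groups were *Cfp* in BCL6LKOFXRKO liver 4, with a ratio of 0.870 (49.6 CPM against at most 25.1), and *C7* in FXRKO liver 1, with a ratio of 0.877 (1.67 CPM against at most 0.752, from 16 counts).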

How the results depend on the processing

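Of the 21 called complement genes, 14 kept direction and call under every alternative that could be run, fold thresholds left aside (5 higher, 9 lower). They were *C1s1*, *C4a*, *Mbl1*, *Mbl2*, *Colec11*, *C3*, *Cfd*, *C6*, *C8a*, *C8b*, *C9*, *Cfi*, *Vtn* and *Cfhr2*, and *Cfd* had no value with at least 10 counts in every liver. The other 7 lost the call at least once, and 7 of the 14 genes not called gained it at least once. The number called higher (12) was 6 with total counts alone and 1 with an absolute log2 fold change above 1, and it ranged from 6 (without FXRKO liver 3) to 13 when a liver was left out. The number called lower (9) was 14 with total counts alone and 6 with an absolute log2 fold change above 1. It ranged from 9 to 11 when a liver was left out. Total counts alone shifted the median of all genes by -0.16 on the log2 scale. The sign changed in 4 genes that were not called. *Cfp* went to -0.21 with limma voom, -0.08 with total counts alone, -0.27 without BCL6LKOFXRKO liver 4 and -0.03 without FXRKO liver 3. *Hc* went to -0.14 with total counts alone, -0.09 without BCL6LKOFXRKO liver 2 and -0.07 without FXRKO liver 3. *C4bp* went to 0.01 with limma voom and 0.03 without BCL6LKOFXRKO liver 4, and *Cd55* to 0.02 without that liver. With a liver left out, *Cfp* ranged from -0.27 to 0.22, *Hc* from -0.09 to 0.11 and *Cd55* from -0.26 to 0.02. With absolute log2 fold changes above 1, the further complement genes had 1 higher and 1 lower, the signal and transcription factor genes 0 lower, and the coagulation genes 1 higher and 0 lower. Above 0.5, the further complement genes had 1 lower and the coagulation genes 0 lower. With at least 10 counts in every liver, each of these lists had 1 lower. Coagulation genes called lower were 5 with total counts alone and from 0 to 6 when a liver was left out (6 without BCL6LKOFXRKO liver 2), further complement genes called lower from 1 to 3 (3 without BCL6LKOFXRKO liver 4 or FXRKO liver 1), and acute phase genes called lower from 1 to 2 (2 without BCL6LKOFXRKO liver 2). With raw library totals, 4 ranks by RPKM changed. The cause of these changes was not tested. Genes under about 20 counts per liver, such as *C7*, are limited by depth. No paired analysis was possible because the labels give the livers no shared numbers.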
